A study of Mus musculus with 16 samples.

Results

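Lung RNA from mice given the tobacco carcinogen NNK followed by a selenocystine diet (NNK+SECY) was compared with lung RNA from untreated mice (Untreated). The members were chosen by title: 4 arrays titled NNK+SECY and 4 titled Untreated, 8 of the 16 arrays of the series. The series is a 4-group design in A/J female mice, an inbred line in which lung tumours arise readily, whose other groups are NNK alone (NNK) and selenocystine alone (SECY), with 4 arrays each. Each array is a dual-colour Agilent whole mouse genome array with the Cy5-labelled lung RNA of 1 mouse set against a common Cy3-labelled reference, and no dye swap was made. That reference was an equal mixture of RNA from the 4 untreated mice, so the Untreated arrays set each mouse against the pool it belongs to. All mice were first kept on the AIN-76 diet, and the Untreated mice, which received neither agent, stayed on it (0.35 ppm selenium). RNA quality index was over 9 in every sample. The NNK+SECY mice received 1 intraperitoneal injection of NNK (10 uM in 0.2 mL saline), were switched 3 days later to 15 ppm selenocystine in that diet, ate it for 10 days and were killed 13 days after NNK. The arrays of a group are biological replicates by their labels, which give no age for the mice.

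NNK is a nitrosamine of tobacco smoke that lung cytochromes P450 convert into reactive species that methylate and pyridyloxobutylate DNA. Selenocystine is the oxidised dimer of selenocysteine, the amino acid built into the active sites of glutathione peroxidases and thioredoxin reductases. Cells meet electrophiles and peroxides through NRF2, a transcription factor that the adaptor KEAP1 holds back in the resting cell. When KEAP1 cysteines are modified, NRF2 reaches antioxidant response elements beside genes for quinone reduction, glutathione conjugation and NADPH supply. DNA damage is met largely through p53, which drives genes for cell cycle arrest, feedback on p53 itself, apoptosis and repair.

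The median Cy5 signal per array was 71.2 to 86.4 on the Untreated arrays and 90.6 to 103 on the NNK+SECY arrays, and the median Cy3 signal was 67.5 to 72.9 and 85.04 to 93.4. Between 70.4% and 71.3% of spots on the Untreated arrays and between 75.7% and 79.3% on the NNK+SECY arrays were well above background in Cy5. The Cy3 channel held the same RNA pool on every array, yet it differed between these groups at 9606 of the probes tested (31.2%). The Untreated arrays lay on slides 1 to 4 and scan day 2, and the NNK+SECY arrays on slides 5 to 8 and scan day 1, so slide set and scan day cannot be told apart from the treatment. Probes for Sftpc, the surfactant protein of alveolar type 2 cells, and Scgb1a1, the secretoglobin of club cells, were saturated on all 8 arrays, so the tissue label matched its markers while no change in them could be read. These were bulk lung samples, in which fewer cells of a type and less RNA per cell cannot be told apart.

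Values below are log2(Cy5/Cy3) after normexp background correction and loess normalisation. A change is the NNK+SECY mean minus the Untreated mean in a limma fit over all 16 arrays, given ± its standard error. A probe was called at a Benjamini-Hochberg adjusted p under 0.05 over all probes tested, and a gene was called when at least 1 of its probes was. The 4 values of a group stand in the order of replicates 1 to 4.

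Of 30749 probes tested, 443 (1.44%) were called, 146 (0.475%) higher and 297 (0.966%) lower in NNK+SECY than in Untreated lung. They belonged to 423 of 21263 genes (1.99%), of which 128 rose (0.602%) and 295 fell (1.39%). The higher probes had a median change of 0.40, with Cy5 at 0.38 and Cy3 at -0.021 (medians over these probes). The lower probes had a median change of -0.63, with Cy5 at -0.45 and Cy3 at 0.18. The median change of all genes tested was 0.0004. Of the 146 higher probes, 106 were under 1.5-fold and 9 past 2-fold, and of the 297 lower probes, 136 were under 1.5-fold and 55 past 2-fold. The groups did not overlap at 2007 of the 30616 probes with all 8 values (6.56%), with NNK+SECY above at 3.10% and below at 3.45%. Among the called probes there was no overlap at 142 of the 146 higher and 292 of the 297 lower. The largest rises and falls were named only where the groups did not overlap. A lack of overlap given for a gene below therefore describes its values and adds no support to its call. With median centring in place of loess the split was 110 higher and 379 lower, and with the Cy5 signal alone it was 2576 higher and 2284 lower. On the NNK+SECY arrays the median over the 146 higher probes was 0.37 to 0.44, on the SECY arrays 0.23 to 0.36 and on the NNK arrays 0.06 to 0.12, while the Untreated arrays lay within 0.04 of 0. Over the 297 lower probes the NNK+SECY arrays read -0.62 to -0.35 and the Untreated arrays -0.01 to 0.23, and SECY 1 read 0.01 where SECY 2 to 4 read -0.57 to -0.36. The lower count depended on single arrays: leaving out Untreated 3 gave 157, Untreated 1 gave 187, NNK+SECY 1 gave 172 and NNK+SECY 4 gave 144. For the higher count, leaving out Untreated 1 or NNK+SECY 4 gave 89, Untreated 2 gave 94, Untreated 3 gave 90, Untreated 4 gave 87 and NNK+SECY 2 gave 93.

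**Figure D1:**
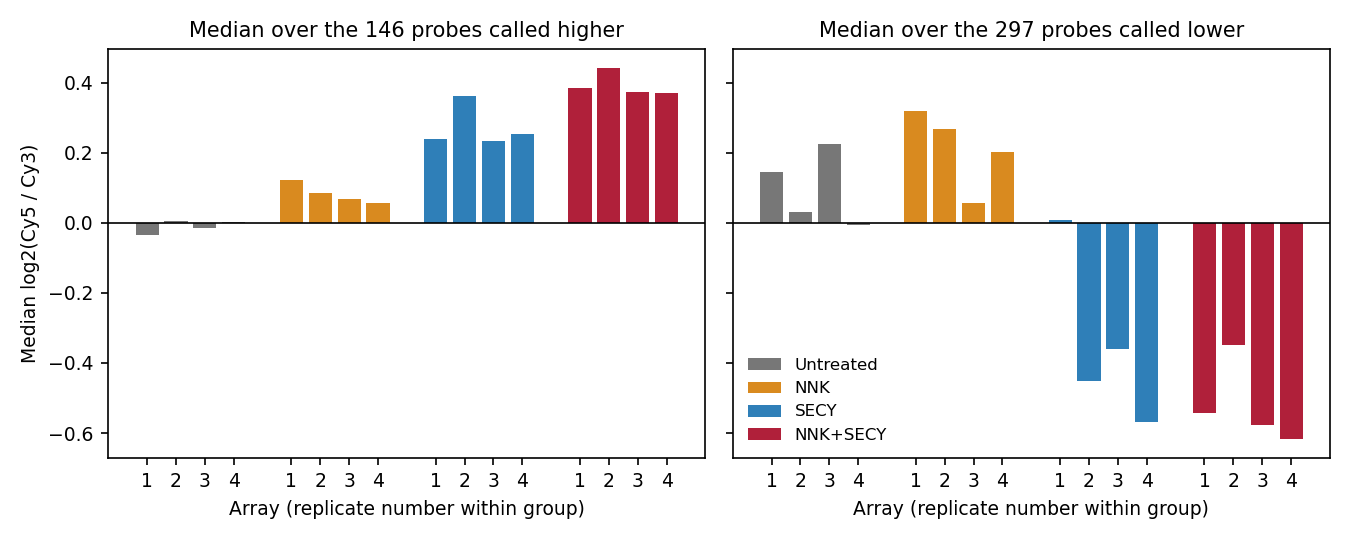
Median log2(Cy5/Cy3) over the 146 probes called higher (one panel) and the 297 probes called lower (the other panel) in NNK+SECY against Untreated lung, 1 bar for each of the 16 arrays, grouped by treatment. The NNK+SECY bars sit at 0.37 to 0.44 for the higher probes and at -0.62 to -0.35 for the lower ones. SECY 1 stands near 0 for the lower probes, apart from SECY 2 to 4, and the probes were chosen on the NNK+SECY and Untreated arrays.

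Genes of antioxidant defence and conjugation made up 31 of the 128 rises. Over 9 lists of such genes, 138 were tested, 31 rose (22.5%, against 0.602% of all genes) and 1 fell. Of the 138, 104 had a change above 0, against 50.2% of all genes. Their median change was 0.12, against 0.10 for SECY alone and 0.012 for NNK alone. These comparisons share the Untreated arrays, and the lists were chosen with earlier results of these data known. Over all 53 lists of pathways and cell types, 966 genes were tested and 45 rose (4.66%, against 0.602% of all genes). Another 15 fell, where 1.39% of all genes fell. They were 45 of the 128 genes that rose and 15 of the 295 that fell.

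Quinone and carbonyl reductases were led by Nqo1, the quinone reductase that is the usual read-out of NRF2 activity. Nqo1 read 0.15, 0.19, -0.074 and 0.027 on the Untreated arrays and 1.61, 1.84, 1.17 and 1.62 on the NNK+SECY arrays. Every NNK+SECY value stood above every Untreated value, NNK+SECY 3 being the lowest of the treated arrays. The change was 1.48 ± 0.13, or 2.80-fold (adjusted p = 1.54e-05). By channel, the sample signal in Cy5 read 1.78 higher and the Cy3 reference 0.30 higher. The dicarbonyl and xylulose reductase Dcxr (0.39 ± 0.089, adjusted p = 0.0368, its other probe reading 0.35 without a call) and the carbonyl reductase Cbr3 (0.53 ± 0.094, adjusted p = 0.0073) also rose. The other 12 of the 15 tested members were not called, among them Cbr1 at 0.079 ± 0.060.

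Glutathione S-transferases, which join glutathione to electrophiles, held the most called members of the 53 lists: 10 of 24 rose and 1 fell, with a median change of 0.21. The alpha-class enzyme Gsta3 read -0.12, 0.070, -0.074 and 0.047 on the Untreated arrays and 0.99, 1.1, 1.21 and 1.05 on the NNK+SECY arrays. The groups were far apart, and a second probe gave the same picture with a change of 0.86 ± 0.085 beside 1.11 ± 0.079. Gstp1, the pi-class enzyme, read -0.13, 0.068, 0.028 and 0.027 on the Untreated arrays and 0.76, 1.07, 0.84 and 1.02 on the NNK+SECY arrays. Its probes changed by 0.93 and 0.92, and no array of one group reached the range of the other. Gstm1, the main mu-class enzyme, changed by 0.91 at a bright probe and 0.61 at a dimmer one. Gsta1 (0.97 ± 0.099), Gsta2 (0.85 ± 0.11), Gstm3 (0.76 ± 0.092) and the omega-class Gsto1 (0.63 ± 0.072) rose, as did Gstm2 (0.35), Gstm6 (0.26) and Gstm5 (0.23). Gstm7 was the member that fell, by 0.50. Gsta1 and Gsta2, the mu-class genes among themselves, and Gstp1 with its neighbouring copies are near-identical in places, so their probes may not tell the members apart. Gsta4, which handles the lipid peroxidation product hydroxynonenal, read 0.19 ± 0.071 and was not called.

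The genes that make and recycle glutathione rose by less. Gclc and Gclm, the catalytic and modifier subunits of the rate-limiting ligase, changed by 0.44 ± 0.087 and 0.40 ± 0.092, and glutathione synthetase (Gss) by 0.31 ± 0.071. Glutathione reductase (Gsr) was called at all 3 of its probes that were tested, with changes of 0.52, 0.47 and 0.35. These were the 4 called genes of 15 tested, whose median was 0.12. Slc7a11, the cystine importer of the same list, was dim, and its probes read 0.13, 0.19 and -0.032 without a call. The call for Gclm was among the weakest of the group, since its adjusted p was 0.0399 and it was lost under 11 of 21 other settings. Gclc lost its call with median centring and without Untreated 4 or NNK+SECY 4.

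In the thioredoxin list, 2 of 16 genes rose and none fell. Srxn1, the sulfiredoxin that repairs overoxidised peroxiredoxins, read 0.16, 0.014, 0.14 and 0.027 on the Untreated arrays and 1.20, 1.53, 1.26 and 1.71 on the NNK+SECY arrays. All 4 treated values were far above the untreated ones, and the change was 1.34 ± 0.13 (2.53-fold, adjusted p = 2.92e-05). Its other probes changed by 0.52, which was called, and 0.39, which was not (adjusted p = 0.0617). Txnrd1, the cytosolic thioredoxin reductase and itself a selenoprotein, read 0.10, -0.073, 0.064 and 0.017 on the Untreated arrays and 0.79, 0.87, 0.70 and 1.05 on the NNK+SECY arrays. These groups did not overlap either, and the change was 0.83 ± 0.091 (adjusted p = 0.000138). Thioredoxin itself (Txn1) read 0.35 ± 0.11 and the peroxiredoxin Prdx1 read 0.22 ± 0.15, and neither was called.

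NADPH-supplying enzymes and heme and iron genes accounted for 7 further rises, 4 of 14 and 3 of 10 tested. Pgd, of the pentose phosphate pathway, was called at both probes (0.42 and 0.40). Malic enzyme Me1 (0.40 ± 0.093), transaldolase Taldo1 (0.30 ± 0.065) and the glycogen branching enzyme Gbe1 (0.76 ± 0.10) rose with it, while G6pdx, the entry enzyme of the pathway, read 0.22 ± 0.062 and was not called. Me1 was called in 8 of 21 other settings. Biliverdin reductase Blvrb (0.77 ± 0.11), the porphyrin transporter Abcb6 (0.32 ± 0.059) and ferritin light chain Ftl1 (0.34 ± 0.075) rose. The heme transporter Slc48a1 was called at both probes (0.43 and 0.37).

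Hmox1, the inducible heme oxygenase that NRF2 and BACH1 both control, was not among the rises. It read -0.042, -0.040, -0.059 and -0.025 on the Untreated arrays and -0.11, -0.23, -0.11 and -0.11 on the NNK+SECY arrays. The treated values stood just below the untreated ones with no overlap, but the change of -0.099 ± 0.072 had an adjusted p of 0.805 against the spread over all 16 arrays. The regulators did not pass the test either: of 9 tested genes of the KEAP1-NRF2 machinery, limma called 0, although 3 were higher at an unadjusted p under 0.05, and their median was 0.11. Nfe2l2, which encodes NRF2, read between 0.073 and 0.17 over its 4 probes, and Keap1 read 0.15 ± 0.071.

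**Figure D2:**
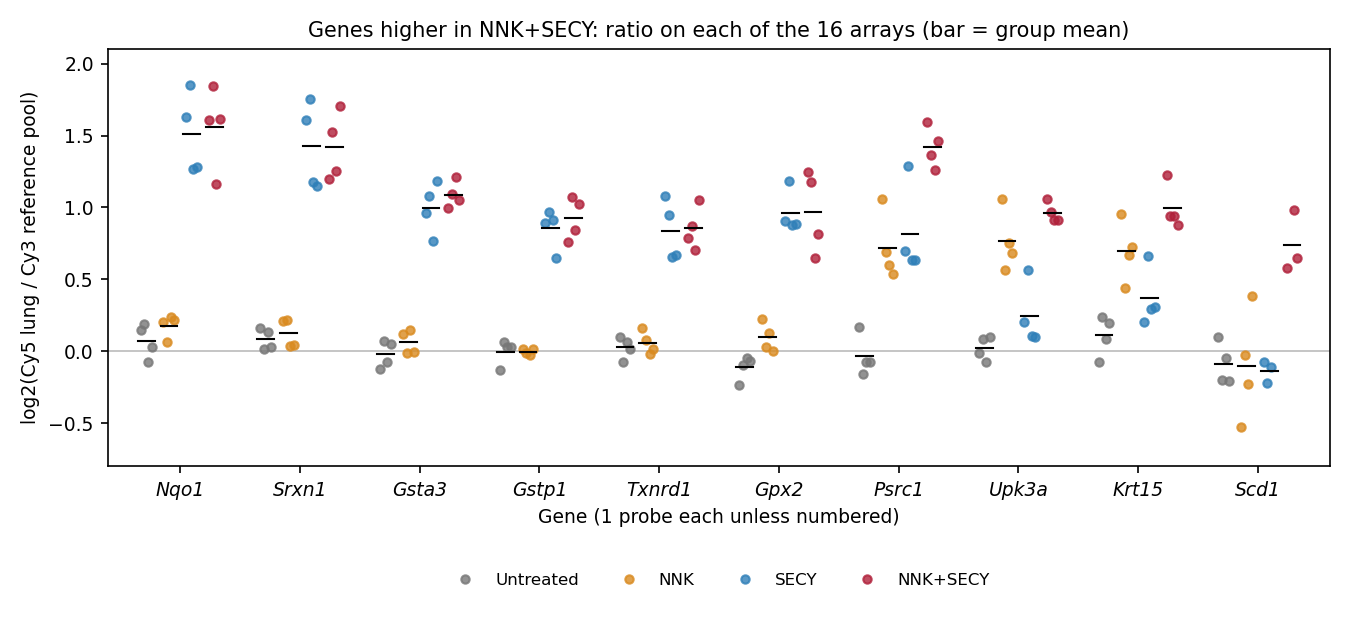
Log2(Cy5/Cy3) of 10 genes on each array of the 4 groups (points) with the group mean (bar). Nqo1, Srxn1, Gsta3, Gstp1, Txnrd1 and Gpx2 were high in the SECY and NNK+SECY groups, Upk3a and Krt15 in the NNK and NNK+SECY groups, Psrc1 in all treated groups, and Scd1 in NNK+SECY, where 3 of its 4 arrays gave a value.

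Promoter sequence was read because so many of these genes are textbook NRF2 targets. The core of the antioxidant response element, TGACNNNGC, was searched on both strands (the reverse strand reads GCNNNGTCA) in windows from 250 bases before to 50 bases after each RefSeq gene start on GRCm38.p6. Of 48 named genes that rose, 39 had a window and 10 of these held the core. Shown here, to let the element be read in genes that rose, are 4 picked from those whose core lay wholly before the gene start. They are printed 5′ to 3′ on the plus strand, with the core in capitals. The cores of Ddit4l, Eda2r and Stt3b, not shown, also lay wholly before the gene start. Those of Me1, Pgd and Srxn1 did not.
Gsta3, chr1:21240439-21240497, core starting 121 bases before the gene start: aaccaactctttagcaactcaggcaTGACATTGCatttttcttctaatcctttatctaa
Txnrd1, chr10:82859089-82859147, core starting 92 bases before the gene start: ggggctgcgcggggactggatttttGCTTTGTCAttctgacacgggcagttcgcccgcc
Gclm, chr3:122245398-122245456, core starting 134 bases before the gene start: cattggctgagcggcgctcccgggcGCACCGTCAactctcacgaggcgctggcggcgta
Htatip2, chr7:49759438-49759496, core starting 49 bases before the gene start: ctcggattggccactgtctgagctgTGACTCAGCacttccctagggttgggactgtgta

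Among genes with a window, the core stood in 22 of 96 that rose (22.9%) and in 28 of 167 that fell (16.8%). Of all genes tested that had a window, 2069 of 12950 held it (15.98%). These shares count genes, a gene holding the core when any of its windows did. Over all windows of this length, counted by window and not by gene, the core stood in 12.4%. That share therefore has another unit and cannot be set against those of the genes. A match is a description of the letters and not a site of binding, and no test was made of these shares. Nqo1 had no match in its window, which says only that these letters are not in it. Htatip2, an oxidoreductase of the short-chain family, was called at both probes (0.35 and 0.33).

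Carboxylesterases and aldehyde dehydrogenases, which hydrolyse esters and oxidise aldehydes, gave 4 rises of 21 tested and a median of 0.21. Ces1g, a carboxylesterase of the liver and lung, read -0.043, -0.019, 0.034 and 0.015 on the Untreated arrays and 1.28, 1.55, 1.29 and 1.07 on the NNK+SECY arrays. The untreated arrays all lay near 0 and the treated arrays near or above 1, and the change was 1.30 ± 0.083 (2.46-fold, adjusted p = 7.53e-07), with 1.25 ± 0.089 at its second probe. Ces1f rose by 0.99 ± 0.085, and the near copies of this cluster may share signal. Aldh1a1, the retinaldehyde dehydrogenase that club cells also express, rose by 0.74 ± 0.084, and Aldh1a7 by 0.57 ± 0.11. Microsomal epoxide hydrolase Ephx1 was called at both probes (0.57 and 0.59) and was the 1 called gene of 14 in the conjugation and efflux list. Ugt1a6b, a glucuronosyltransferase whose probes may also read the other products of its locus, rose by 0.84 ± 0.098 at one probe and read 0.11 at a dim one, and the efflux pump Abcc1 read 0.17 at its best probe and was not called.

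No lung cytochrome P450 was called by limma among 17 tested, where 3 were higher and 1 was lower at an unadjusted p under 0.05. Cyp2a5, the mouse lung enzyme that activates NNK, read -1.1, 0.043, 0.21 and 0.15 on the Untreated arrays and -0.30, 0.50, -0.20 and -0.13 on the NNK+SECY arrays. Untreated 1 stood far below the other 3 untreated mice, the change was 0.14 ± 0.34, and the sign turned to -0.17 without Untreated 1. Cyp1a1, the aryl hydrocarbon receptor target, read 0.028, 0.26, 0.13 and -0.016 on the Untreated arrays and 1.40, 0.95, -0.14 and 1.82 on the NNK+SECY arrays. Here 3 of 4 treated arrays were well above the untreated ones and NNK+SECY 3 was not, and the change of 0.91 ± 0.29 had an adjusted p of 0.22. Cyp2f2, a club cell P450, read -0.19 ± 0.076.

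Of 22 selenoproteins tested, Txnrd1 and Gpx2 rose and none fell, and the list median was -0.0044. Gpx2, the epithelial glutathione peroxidase, read -0.23, -0.094, -0.047 and -0.070 on the Untreated arrays and 1.24, 1.18, 0.65 and 0.81 on the NNK+SECY arrays. All untreated values were below 0 and all treated values well above it. The change was 1.08 ± 0.11 (2.11-fold, adjusted p = 5.53e-05). The selenoproteins that follow selenium supply in liver read differently. Gpx1 read 0.17 ± 0.069 at one probe and -0.014 ± 0.091 at a brighter one, Gpx3 read -0.073 ± 0.13, Selenow -0.017 ± 0.071 and Selenop, the plasma selenium carrier, 0.11 ± 0.21, and limma called none of them. Among 11 selenium handling genes limma called 0, and 0 passed an unadjusted p under 0.05.

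Among p53 targets, 10 of 48 tested genes rose (20.8%, against 0.602% of all genes) and 1 fell, where 1.39% of all genes fell. A change above 0 was read in 40 of the 48, against 50.2% of all genes, and the median was 0.13. The p53 lists, too, were chosen with earlier results of these data known. Psrc1, a spindle-associated protein and p53 target, read 0.17, -0.16, -0.078 and -0.073 on the Untreated arrays and 1.59, 1.37, 1.26 and 1.46 on the NNK+SECY arrays. The treated values lay close together, far above the untreated ones. The change was 1.46 ± 0.14 (2.74-fold, adjusted p = 2.92e-05), and of its other probes, both dimmer, one was called at 0.55 ± 0.066 and one read 0.15 without a call. Both single treatments read high for Psrc1, at 0.85 for SECY and 0.76 for NNK alone, and NNK+SECY stood 0.70 above NNK (adjusted p = 0.00952).

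Ccng1, the cyclin G that feeds back on p53, read 0.11, 0.013, -0.011 and 0.11 on the Untreated arrays and 0.74, 0.70, 0.67 and 0.66 on the NNK+SECY arrays. The treated arrays formed a tight group above every untreated array, and both probes were called (0.64 and 0.59). Ddit4l, an inhibitor of mTOR signalling, was called at all 3 probes (0.61, 0.62 and 0.33). The growth factor Gdf15 (0.46 ± 0.066), Zmat3, an RNA-binding p53 target (0.42 ± 0.083), Phlda3, an AKT inhibitor (0.42 ± 0.090), Dglucy, a D-glutamate cyclase (0.66 ± 0.046), and the death receptor Eda2r (0.23 ± 0.054) rose. Dcxr and Ephx1 are on these lists too and were given above. Calls for Phlda3 and Zmat3 were lost in 10 and 2 of 21 other settings and that for Eda2r in 11 of 20. Other probes read 0.071 for Dglucy and -0.049 for Eda2r, without a call. Sfn, the 14-3-3 sigma protein, was called lower at 1 probe (-0.56 ± 0.10), while its others read -0.043 and -0.039. The best known targets did not pass: Cdkn1a, the p21 cell cycle inhibitor, read 0.42 ± 0.22 (adjusted p = 0.631), Mdm2 0.24 ± 0.074 and 0.12 ± 0.063 at its probes, and Bax 0.23 ± 0.070.

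Repair and proliferation genes showed no calls. Of 25 genes of methyl-adduct and base excision repair limma called 0 (1 higher at an unadjusted p under 0.05), and of 37 replication and mitosis genes it also called 0 (3 higher). Mgmt, the methyltransferase that removes O6-alkylguanine, read 0.056 ± 0.061 and -0.026 ± 0.063, Trp53 0.11 ± 0.063 and 0.015 ± 0.066, and Mki67, the proliferation marker, -0.10 ± 0.15 and -0.012 ± 0.079.

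Among the rises outside the antioxidant and p53 lists, some had large changes. Upk3a, a uroplakin of urothelium that rare lung epithelial cells also express, read -0.015, 0.085, -0.077 and 0.099 on the Untreated arrays and 1.06, 0.97, 0.91 and 0.91 on the NNK+SECY arrays. Its groups did not overlap, with a change of 0.94 ± 0.10 (1.92-fold, adjusted p = 0.000134). Krt15, a basal cell keratin, read -0.073, 0.24, 0.086 and 0.19 on the Untreated arrays and 1.23, 0.94, 0.94 and 0.88 on the NNK+SECY arrays. The treated arrays were again all above the untreated ones, by 0.89 ± 0.11 (adjusted p = 0.000624). Retnla, the resistin-like molecule of type 2 immune responses, was called at both probes (1.1 ± 0.20 and 1.16 ± 0.23, the latter with 7 of 8 values).

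In these 3 genes the NNK change was the larger of the single-treatment values. Upk3a read 0.22 for SECY and 0.74 for NNK, Krt15 0.26 and 0.58, and Retnla 0.23 and 0.75. The Upk3a probe was 1 of only 2 probes called between NNK+SECY and SECY (0.72, adjusted p = 0.0399). Itgb4, the laminin-binding integrin of basal epithelium, was called at 2 of 3 probes (0.40 and 0.49), the third being dim and near 0. The basal cell and uroplakin list as a whole did not follow: of 15 genes tested, Krt15 and Upk3a rose, Upk1a fell at 1 of 2 probes (the other reading -0.050) and the median was -0.0056.

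Scd1, the stearoyl-CoA desaturase of fatty acid synthesis, read 0.099, -0.20, -0.046 and -0.20 on the Untreated arrays and 0.58, 0.98 and 0.65 on the NNK+SECY arrays, the value of NNK+SECY 2 being missing. The 3 treated values were above all untreated ones, and the change was 0.82 ± 0.16 (adjusted p = 0.0167). Both single treatments read near 0, at -0.048 for SECY and -0.012 for NNK, and its departure from the sum of the single treatments (0.88) had an adjusted p of 0.924. The call was lost with median centring and without Untreated 2, Untreated 4, NNK+SECY 3 or NNK+SECY 4. It was the 1 called gene of 19 in the fatty acid synthesis list.

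Set side by side with the single treatments, which share the same Untreated arrays, more of the rises were also read with SECY than with NNK. The SECY arrays lay on the same slides as the NNK+SECY arrays and the NNK arrays on those of Untreated, while NNK shared the scan day of NNK+SECY, so a likeness to either treatment cannot be told apart from slide set or scan day. Against Untreated, SECY alone had 87 probes called (0.283%), 60 higher (0.195%) and 27 lower (0.0878%), with 7.89% of probes at an unadjusted p under 0.05. NNK alone had 65 called (0.211%), all higher, with 4.76% at that level. Of the 20 named genes with the largest rises among those with no overlap over all 8 arrays, which leaves out Scd1 with its missing value, 17 had a SECY change nearer to the NNK+SECY change than to 0, and 4 had such an NNK change, with Psrc1 in both counts and the others being Upk3a, Krt15 and Retnla. All 4 SECY arrays lay above all 4 Untreated arrays at 84 of the 146 higher probes, and all 4 NNK arrays at 42. The 146 probes were chosen against the same Untreated arrays, which raises both counts. The share over all probes was not read, so how far the counts exceed it is not known. The direct comparisons also differed in size. NNK+SECY differed from NNK at 481 probes (1.56%), 89 higher (0.289%) and 392 lower (1.28%), with 9.80% at an unadjusted p under 0.05. It differed from SECY, on the same slides, at 2 probes (0.00651%), with 1870 (6.08%) at that level.

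A departure from the sum of the single treatments was called at 2 probes (0.00651%), 1 higher and 1 lower (0.00325% each), with 1401 probes (4.56%) at an unadjusted p under 0.05. A probe of the transcript AK081879 read -0.091, -0.22, -0.43 and -0.38 on the Untreated arrays and -1.13, -1.19, -1.17 and -1.31 on the NNK+SECY arrays. All treated values were below all untreated ones, but the SECY arrays stood lower still, at -1.95, -1.56, -2.0 and -1.78. Its departure was 0.89 (adjusted p = 0.0294), and Cy3 read 0.69 higher in NNK+SECY while Cy5 read -0.23. The other probe of this transcript changed by 0.033 and departed by 0.075 (adjusted p = 0.998). A dim probe of Stt3b, a catalytic subunit of the oligosaccharyltransferase, departed by -0.62 (adjusted p = 0.029), where the NNK arrays read 0.48, 0.68, 0.43 and 0.63 and the NNK+SECY arrays -0.065, -0.093, -0.16 and -0.22. The 3 other Stt3b probes did not show this pattern: one of them rose by 0.23 between NNK+SECY and Untreated and the remaining ones read 0.037 and 0.14. Leaving out 1 array at a time moved the count of such probes between 0 and 3, and it was 0 in 11 of 16 such fits.

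The falls had another shape. The 20 named genes with the largest falls changed by -1.43 to -1.12, all from probes of log2 intensity 6.67 to 7.72, near the median of all probes (7.05). They came from varied families, among them Lgr4, a receptor for R-spondins in Wnt signalling, Itgb8, an integrin subunit that activates TGF-beta, the acyl-CoA thioesterase Acot6, the endoplasmic reticulum oxidase Ero1b, the protease Adamts4, the dual oxidase Duox2 and the uroplakin Upk1a. The median of these 20 probes was -1.29, -0.70, -1.30 and -1.46 on NNK+SECY 1 to 4, and -0.99, -0.95 and -1.31 on SECY 2 to 4, but 0.05 on SECY 1.

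Lgr4 shows the pattern in 1 gene. Its lead probe read 0.28, -0.0073, 0.23 and -0.27 on the Untreated arrays and -1.39, -1.03, -1.38 and -1.70 on the NNK+SECY arrays, and 0.023, -1.20, -1.05 and -1.39 on the SECY arrays. The treated groups were low except for SECY 1, which lay within the range of the Untreated arrays. The change against Untreated was -1.43 ± 0.24 (adjusted p = 0.00522), while the other Lgr4 probes read -0.0084 and -0.0032. Itgb8 read 0.17, -0.19, 0.34 and -0.076 on the Untreated arrays and -1.17, -0.74, -1.31 and -1.5 on the NNK+SECY arrays. Its groups did not overlap and its change was -1.24 ± 0.23 (adjusted p = 0.0083), but its other probe, which was well above background on 2 of 4 Untreated arrays, read 0.036.

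This SECY 1 profile ran through the dimmer falls. Of the 297 lower probes, 260 had SECY 2 to 4 below every Untreated array, and in 179 of these SECY 1 was not. The 297 probes were chosen against the same Untreated arrays, which raises the count of 260. The share of all probes with this profile was not read, so the counts describe the called falls only. Below a log2 intensity of 8 there were 254 lower probes, with a median change of -0.71, and 165 had this profile. From 8 to 9 it was 13 of 19 probes. At 9 and over there were 24 lower probes, with a median change of -0.39, and 1 had the profile. What set SECY 1 apart was not tested.

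**Figure D3:**
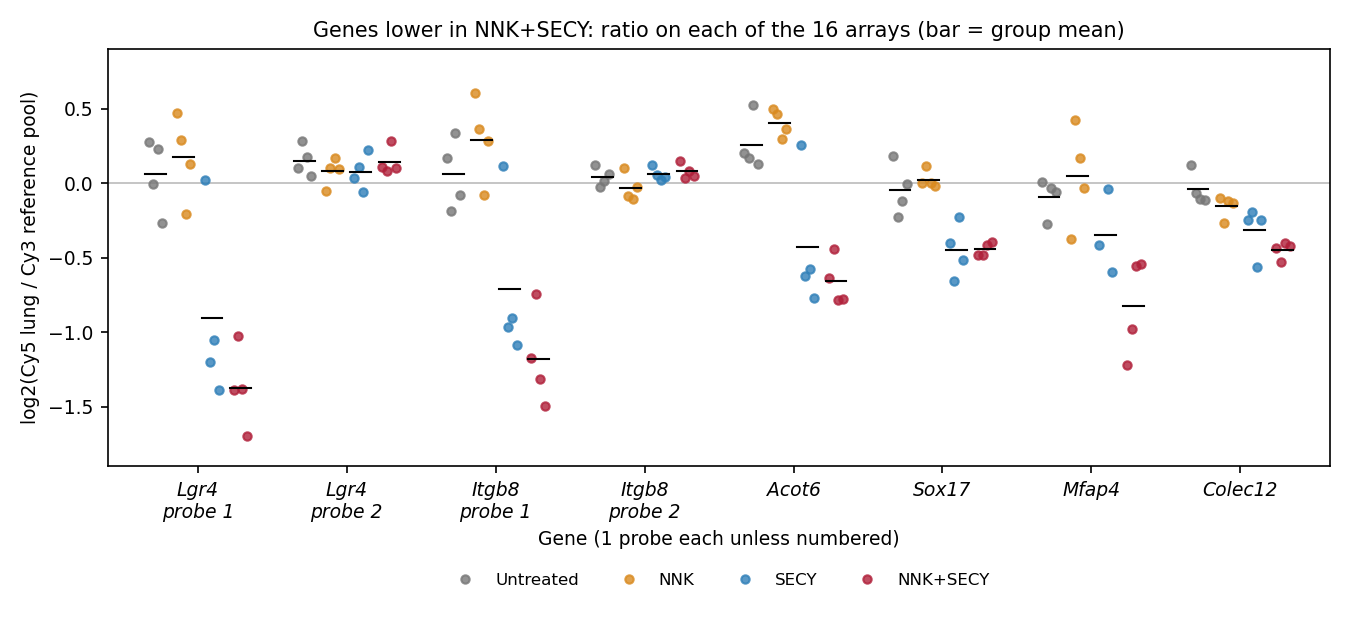
Log2(Cy5/Cy3) of 8 probes on each array of the 4 groups (points) with the group mean (bar): the lead and another probe of Lgr4 and of Itgb8, and 1 probe each of Acot6, Sox17, Mfap4 and Colec12. The lead Lgr4 and Itgb8 probes and Acot6 are low in NNK+SECY and in 3 of 4 SECY arrays, and the other Lgr4 and Itgb8 probes stay near 0 in every group.

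Where a gene had more than 1 tested probe, the other probes were read beside the called one. Of the 128 genes that rose, 47 had 2 or more tested probes and 16 of these had 2 or more called. The other 48 probes of those genes had a median change of 0.068, and 17 (35.4%) were higher at an unadjusted p under 0.05. Of the 295 genes that fell, 126 had 2 or more tested probes and 2 had 2 called, Acot6 and Sox17. The other 194 probes had a median change of -0.0050, and 13 (6.70%) were lower at an unadjusted p under 0.05. Over all probes tested, 4.39% were higher and 4.39% lower at that level. The difference between these shares was not tested, since the called probes were chosen by the same contrast.

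**Figure D4:**
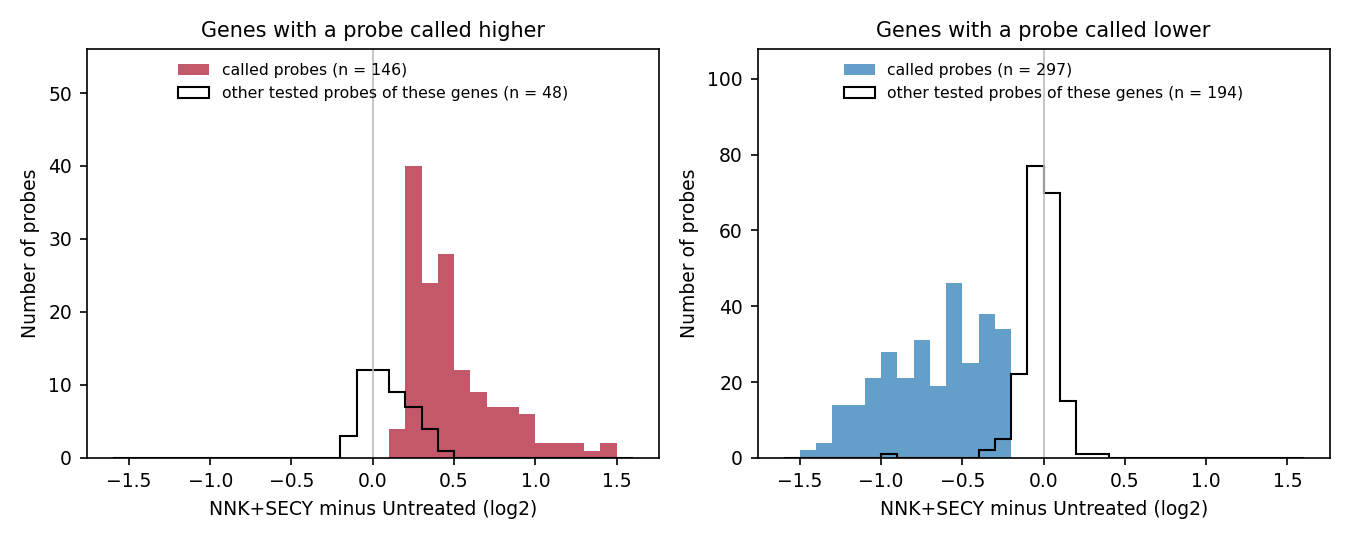
Histograms of the log2 change, NNK+SECY minus Untreated, for the probes called and for the other tested probes of the same genes: 146 called and 48 other probes for genes that rose, 297 and 194 for genes that fell. The other probes of genes that fell centre on -0.0050, and those of genes that rose have a median of 0.068.

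The reference channel moved at part of the falls. The Cy5 signal alone changed in the called direction at 140 of the 146 higher and 274 of the 297 lower probes. It was itself called in that direction at 97 of the higher and 162 of the lower probes. In some lower probes the ratio came mainly from Cy3: a probe of Ppp2r5e, a phosphatase regulatory subunit, changed by -0.78 ± 0.10 with Cy5 at 0.26 and Cy3 at 1.04 (its 3 other probes lying between -0.029 and 0.037), and the called Cux1 probe had Cy5 at 0.0044 and Cy3 at 0.50. Of all probes tested, 3.79% had a Cy3 difference over 0.5. Without those, 138 higher and 270 lower probes were called. In some called probes both channels were far brighter on the NNK+SECY arrays. Among them were the transcript AK080577 with Cy5 5.73 and Cy3 4.84 higher, the transcript BC038629 with 2.53 and 2.11, and the ubiquitin ligase Rnf183 with 1.97 and 1.55.

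**Figure D5:**
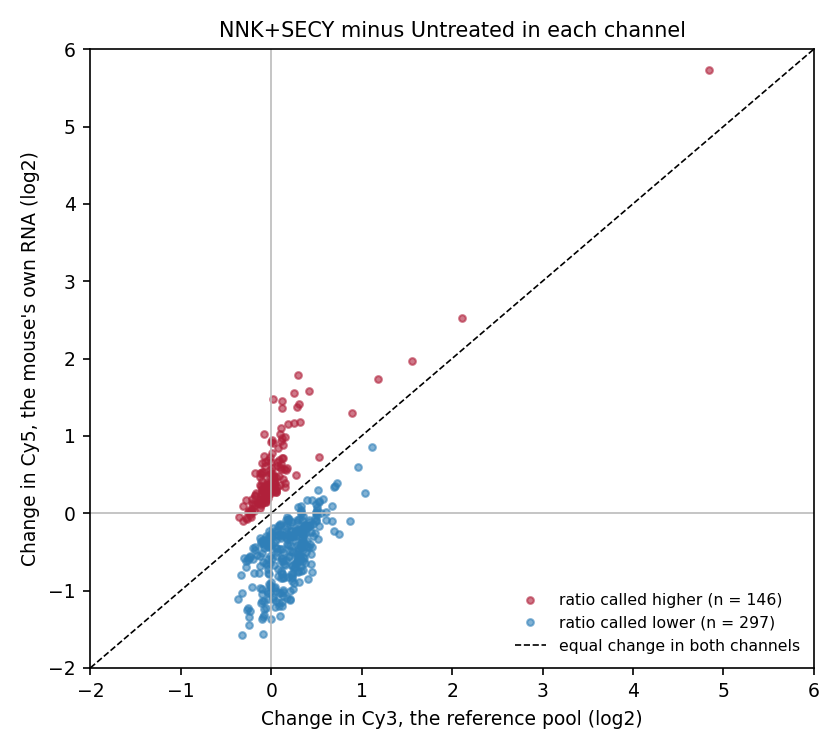
Change in Cy5 (vertical axis) against change in Cy3 (horizontal axis), NNK+SECY minus Untreated in log2 signal, for each called probe, with the dashed line where both changed equally. Higher probes lie above the line around a Cy3 change of -0.021, and lower probes lie under it with a median Cy3 change of 0.18.

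Some falls were read at more than 1 probe or at a brighter one. Acot6 was called at 2 of 3 probes (-0.92 and -1.33), and the third read 0.052. Sox17, an endothelial transcription factor, read 0.18, -0.23, -0.12 and -0.0053 on the Untreated arrays and -0.48, -0.48, -0.42 and -0.39 on the NNK+SECY arrays at its brighter probe. The treated values lay close together below every untreated value, both called probes fell (-0.40 and -0.32), and the other 2, which were dim, read near -0.04. Colec12, a scavenger receptor of the vasculature, read 0.12, -0.065, -0.11 and -0.11 on the Untreated arrays and -0.43, -0.53, -0.40 and -0.42 on the NNK+SECY arrays. Its groups were also apart, by -0.40 ± 0.075 (adjusted p = 0.00926). Colec12, the neurotrophin receptor Ntrk2 (-1.06 ± 0.24, with -0.92 at another probe, adjusted p = 0.0515), the chemoattractant Rarres2 (-0.25 ± 0.057), the BMP regulator Bmper (-0.27 ± 0.064), the matrix protein Cthrc1 (-0.35 ± 0.079), Itga1 (-0.30 ± 0.071) and the Wnt receptors Fzd2 (-0.21 ± 0.047) and Fzd3 (-0.40 ± 0.096, though another Fzd3 probe read 0.12) were among 13 genes that fell and whose other probes included 1 lower at an unadjusted p under 0.05. The brightest Itga1 probe read -0.0040. Calls for Sox17 and Ntrk2 were lost in 9 and 11 of 21 other settings.

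Most matrix genes read below 0, with few calls. Mfap4, a microfibril protein of elastic fibres, read 0.011, -0.28, -0.033 and -0.057 on the Untreated arrays and -1.22, -0.98, -0.55 and -0.54 on the NNK+SECY arrays. The groups did not overlap but the treated arrays were spread, with NNK+SECY 3 and 4 the closest to the untreated ones, and the change was -0.73 ± 0.17 (adjusted p = 0.0466). Col14a1, a fibril-associated collagen, fell by 0.29. They were the 2 called genes of 39 in the collagen and matrix list, where 30 genes were below 0 and the median was -0.15. Of the 39, 14 were lower at an unadjusted p under 0.05 at any probe, a level passed downward by 4.39% of all probes. The array medians of the list overlapped between groups, at -0.16 to 0.06 in Untreated and -0.27 to -0.06 in NNK+SECY. The calls for Mfap4 and Col14a1 were lost in 11 and 10 of 21 settings, for Mfap4 also with the slide as a random block. Acta2, the smooth muscle actin, was called at 1 probe of log2 intensity 7.84 (-0.35 ± 0.061), while its brighter probes read -0.10 and -0.11.

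Markers of some cell types also read off 0. Fibroblast and smooth muscle markers had a median of -0.11 over 27 genes, 3 of them called lower (Mfap4, Col14a1 and Acta2), and their median on single arrays ran from -0.11 to 0.09 in Untreated and from -0.23 to -0.06 in NNK+SECY. Their part in the matrix result was not tested. MHC class II genes had a median of -0.23 with all 12 below 0 and 1 called, Ifi30, a thiol reductase of antigen processing (-0.25 ± 0.059), and Cd74, the invariant chain, read -0.43 ± 0.13 (adjusted p = 0.151). The MHC class II median on single arrays was -0.22 to 0.07 in Untreated and -0.27 to -0.14 in NNK+SECY, so the groups overlapped. Ciliated cell markers read the other way, with 25 of 29 above 0 and a median of 0.19. At an unadjusted p under 0.05, 14 were higher by any probe and 0 lower, where 4.39% of all probes were higher. The 1 call was the radial spoke protein Rsph9 (0.32 ± 0.077), and Foxj1, the ciliogenesis factor, read 0.42 ± 0.14 (adjusted p = 0.247). The array medians of these markers overlapped between groups, at -0.02 to 0.12 in Untreated and 0.08 to 0.28 in NNK+SECY. Cilium genes outside the list were called higher too, among them Cfap52 (0.40), Cfap206 (0.36), Dnahc3 (0.29) and Dnah6 (0.23). Other probes read 0.20 for Cfap206 and 0.016 and -0.084 for Dnahc3, without a call. Rfx3, a regulator of cilium genes, was called lower at 1 probe (-0.96), its other probe reading 0.057.

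Some markers of other cells were called as well. Of 23 endothelial markers Sox17 fell, of 20 markers of monocytes and dendritic cells Csf1r fell at 1 dim probe (-0.55 ± 0.094, its others reading -0.059 and 0.017), of 7 thymus and lymph node markers the chemokine Ccl19 fell at 1 probe (-0.59 ± 0.13, the other reading -0.093), and of 17 club cell markers Aldh1a1 rose while Bpifa1, a secreted airway protein, fell (-0.41 ± 0.098). Among 21 alveolar macrophage and 20 alveolar type 2 markers limma called 0, with 6 and 7 lower and 0 and 2 higher at an unadjusted p under 0.05. Over all probes 4.39% were lower at that level, while a marker counts here by any of its probes. Of the macrophage markers, 17 were below 0. Their array medians did not overlap, at -0.07 to 0.02 in Untreated and -0.22 to -0.10 in NNK+SECY. Those of the type 2 markers did, at -0.11 to 0.001 and -0.19 to -0.10. Skeletal muscle markers, which can enter a lung sample with chest wall tissue, had 13 of 14 above 0 and 0 called by limma (3 higher at an unadjusted p under 0.05). Their array medians spread widely in both groups, from -0.19 to 0.25 and from -0.35 to 0.41. Cardiac muscle markers had 16 of 17 below 0 and 0 called by limma (2 lower at an unadjusted p under 0.05). Their array medians spread from -0.21 to 0.24 in Untreated and from -0.28 to 0.13 in NNK+SECY. Over all cell type lists, 349 genes were tested and 4 rose (1.15%, against 0.602% of all genes). Another 9 fell, where 1.39% of all genes fell.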

How the data were processed

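The deposited scanner files hold Cy3 and Cy5 spot intensity and a log10 ratio per spot made with Feature Extraction 8.1.1.1 according to the deposited headers, and the authors' deposited value table holds the same ratio of Cy5 over Cy3 as log2 values (largest difference 0.0050, every column median 0). From the deposited intensity, log2(Cy5/Cy3) was computed in limma 3.58.1 (R 4.3.3) by normexp with an offset of 50 and loess within each array, and spots of a probe were averaged. The filter kept 30750 of 41174 probes, those whose Cy5 signal was well above background throughout 1 or more groups. lmFit and eBayes were fitted to 4 group means on all 16 arrays, and p-values were adjusted by Benjamini-Hochberg. Channel values came from Aquantile after loess. A probe with a missing value was fitted on the arrays left (678 probes). Probes were named through the RefSeq gene table of GRCm38.p6 (22072 by accession, 6280 by symbol, 4226 by synonym), and 8596 kept the name in the file.

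The genes named were the 20 largest rises and falls without overlap, genes with 2 or more called probes, up to 6 members of each list a fixed set and the 6 probes of smallest p for non-additivity. Falls with another probe lower, cilium genes outside the list, members of a list beyond these and probes with large Cy3 changes were named after their values were seen. The members of the comparison and the lists were chosen with earlier results of these data known. The fit was tested on simulated data. Alternatives covered the signal source, normalisation, filter, weights, blocks, channels, threshold and each array left out. Replicate numbers were not taken to pair the mice. The number of arrays limits the precision.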

Additional observations from a re-analysis of the deposited data

Results flagged for a closer look

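Of 109 groups of 4 arrays checked over 55 genes, 4 had 1 array far from the other 3. Chance gives about 1 in 20, so 4 is no more than chance would give. For Cyp2a5, Untreated 1 read -1.10 where the others read 0.04 to 0.21. Mgmt on Untreated 1 read 0.068, with the others at -0.047 to -0.028. Hmox1 on NNK+SECY 2 was -0.225, and the others were -0.114 to -0.112. Gpx1 on NNK+SECY 1 was 0.225 where the others were 0.39 to 0.42. Effects of the diet that differed with and without NNK in limma were a probe of Stt3b (-0.62) and a probe of the transcript AK081879 (0.89), the values being the departure from the sum of the single treatments.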

How the results depend on the processing

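The counts of 443 called probes, 146 higher and 297 lower, moved by over 1.5 times in these settings. The Cy5 signal alone called 4860 probes, 2576 higher and 2284 lower. Array weights called 248 higher. Probes at or above the median intensity, a setting chosen after seeing the data, gave 286 called and 173 lower. A test against a 1.5-fold change in limma gave 6 called, all 6 higher and 0 lower, where 23 and 95 passed at an unadjusted p under 0.05. Leaving out 1 array gave 233 to 364 called, 87 to 109 higher and 144 to 271 lower. The total fell by over 1.5 times when leaving out Untreated 1 (276), Untreated 3 (247), NNK+SECY 1 (275) or NNK+SECY 4 (233). The Cy3 count was 5792 to 10753, lowest without Untreated 1 (5792) and Untreated 2 (5925). The count of departures from additivity was 0 with the processed signals and 0 to 3 with 1 array left out, with 1179 to 1713 probes at an unadjusted p under 0.05.

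Arrays with the same replicate number were not treated as pairs. Their deviations correlated at 0.20, 0.070, 0.0077 and 0.088, and 2 of 4 matched their own number best, which does not settle whether the numbers share variation. With the replicate number as a block 474 probes were called, 154 higher and 320 lower, 12741 in Cy3 and 1 for non-additivity. With the slide as a random block 431 were called.

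Of 55 genes followed, 47 were called, and 35 of these passed in each of the 20 or 21 settings tried for them. The settings leave out the 1.5-fold test, where the 6 probes were of Ces1g, Psrc1, Nqo1, Gsta3 and Srxn1. They count the processed signals and the authors' deposited value table separately, although these hold the same ratio. This also holds for the settings counted for single genes above. Signs turned for Cyp2a5, to -0.078 with Cy5 alone, -0.17 without Untreated 1 and -0.036 without NNK+SECY 2 (range over arrays left out -0.17 to 0.27), and for Gpx3, to 0.040 without Untreated 3 and 0.0089 without Untreated 4 (range -0.20 to 0.040). The cause was not tested in any of these. Slide set and scan day moved with treatment.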
